A study of Mus musculus with 4 samples.

Results

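The genes described here encode the precursors of the cornified envelope and the enzymes that join them, measured on expression arrays in mouse basal epidermal cells, sorted from skin at E16.5. They were chosen by name: every gene whose array symbol begins with Sprr or Lce, together with Lor, Ivl, Flg, Flg2, Hrnr, Rptn, Tchh, Crnn, Crct1, Tgm1, Tgm3, Tgm5, Evpl, Ppl and Cnfn. The choice gave 37 of the 18193 genes named on the array, read by 48 probe sets (the units of an array, each a set of probes for 1 transcript). Flg2 and Crnn were not analysed here. Of the 48, 3 carry the symbols of several near-identical Sprr2a copies and count toward no single gene.

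Cells came from embryos in which K14-Cre, a recombinase driven by a keratin promoter of basal keratinocytes, acts on floxed Srf and on a ROSA26 YFP reporter. The group called cKO (n = 2, titled Ko_1210 and KO_1261) was SRF fl/fl, with ROSA26 YFP fl/fl and K14-Cre. The group called het (n = 2, titled het_1210 and het_1261) was SRF fl/+ with the same reporter and Cre, so 1 floxed allele and Cre activity are shared by both groups; the submitters name this group WT, and its strain field says only Rosa26. Live single cells were sorted on α6 integrin and YFP. The arrays het_1210 and Ko_1210 share a number in their titles and are called the first pair, het_1261 and KO_1261 the second. No label says what these numbers mark or whether embryos were pooled, and the spread between samples may be in part technical.

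The cornified envelope is the protein shell that replaces the plasma membrane of a keratinocyte as it dies at the skin surface. Envoplakin, periplakin and involucrin are laid down first as a scaffold; loricrin, small proline-rich (Sprr) and late cornified envelope (Lce) proteins are then cross-linked onto it by transglutaminases, while filaggrin and related fused S100 proteins are made in keratohyalin granules. Most of these genes lie side by side in the epidermal differentiation complex and are switched on above the basal layer. SRF is a transcription factor that binds the CArG box and, with MRTF coactivators, drives actin and other cytoskeletal genes.

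Srf transcript was low in both cKO samples. The signal of its brighter probe set was 834 in het_1210 and 1108 in het_1261, against 47.9 in Ko_1210 and 80.4 in KO_1261. The difference was -3.93 ± 0.41 on the log2 scale (SE, limma without a block) and did not pass (adjusted p = 0.999955). It passed with the number in the titles as a block (1.18e-12), though not with the block and no variance trend (0.169), and without a block when KO_1261 was left out (0.00132). Where the floxed exons lie relative to it is not given here. All arrays had the same trimmed mean, and their median signals ran from 63.7 to 82.5. The pairs also differed technically: poly-A spike-ins, added to the RNA before labelling, were higher on the first-pair array at 24 of 24 probe sets in both groups, by a median of 2.45-fold in het and 2.80-fold in cKO. Xist had a signal of 62.6 and 115 on the het and cKO arrays of the first pair and 14338 and 22802 on those of the second, and the Y-linked Eif2s3y had 1485 and 1386 in the first pair, 834 in het_1261 and 3.01 in KO_1261. The sex make-up of the samples thus differed between the pairs and within the second pair, and het_1261 carried both transcripts. Differences are given as cKO minus het of log2(signal + 1), where 1 unit is a 2-fold change.

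Promoter sequences are shown for Sprr1b, Lor, Ivl and Hrnr, which were among the 6 tested genes over 2-fold higher in cKO within the first pair, for Sprr1a, the paralog of Sprr1b, and for Flg, the gene of the group with the lowest cKO signals relative to het. They are RefSeq sequence of build GRCm38.p6, on the strand of the gene, and end at the base before the transcription start. Capitals mark the TATA box (TATAAA), the AP-1-like motif TGANTCA, where N is any base, and the CArG box, which occurs once. In Sprr1b and Flg the motif TGANTCA reads TGAATCA.
Sprr1b, chr3:92438780-92438929, minus strand: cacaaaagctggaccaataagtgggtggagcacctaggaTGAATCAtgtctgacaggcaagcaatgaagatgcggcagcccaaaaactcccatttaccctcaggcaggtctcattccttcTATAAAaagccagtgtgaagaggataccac
Sprr1a, chr3:92485882-92486031, minus strand: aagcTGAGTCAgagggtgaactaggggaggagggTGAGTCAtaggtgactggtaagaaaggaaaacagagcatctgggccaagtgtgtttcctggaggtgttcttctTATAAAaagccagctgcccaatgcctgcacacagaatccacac
Lor, chr3:92083143-92083292, minus strand: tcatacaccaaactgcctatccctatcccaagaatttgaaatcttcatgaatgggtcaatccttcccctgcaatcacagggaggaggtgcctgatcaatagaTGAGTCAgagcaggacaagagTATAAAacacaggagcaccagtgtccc
Ivl, chr3:92573736-92573885, minus strand: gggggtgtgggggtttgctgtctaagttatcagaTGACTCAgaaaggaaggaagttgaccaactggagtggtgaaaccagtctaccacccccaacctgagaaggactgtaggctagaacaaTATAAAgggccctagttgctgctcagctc
Hrnr, chr3:93319599-93319748, plus strand: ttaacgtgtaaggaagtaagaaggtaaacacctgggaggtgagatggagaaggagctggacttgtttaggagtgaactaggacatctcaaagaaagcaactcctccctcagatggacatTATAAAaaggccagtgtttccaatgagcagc
Flg, chr3:93273296-93273545, plus strand: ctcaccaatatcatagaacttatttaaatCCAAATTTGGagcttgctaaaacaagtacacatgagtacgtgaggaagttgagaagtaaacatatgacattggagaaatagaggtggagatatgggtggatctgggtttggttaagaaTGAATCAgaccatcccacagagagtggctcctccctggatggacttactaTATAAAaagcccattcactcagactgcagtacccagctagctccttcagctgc

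The table of promoters held 32 of the 37 genes in 33 windows; Crct1, Evpl, Lce1f, Ppl and Sprr2j-ps were the others. In the 250 bases before the start, TATAAA was found in 16 of the 33 windows (48.5%), against 7.59% of the 32851 windows of all genes. In 14 windows (42.4%, against 1.99%) it began between 40 and 21 bases before the start, as at 30 bases in Sprr1b, 31 in Hrnr, 29 in Ivl and 27 in Lor. TGANTCA, searched on both strands, was found in 11 windows (33.3%, against 6.75%), all of them of Sprr genes, Ivl, Lor, Flg or Rptn; 0 of the Lce windows held it. It began 111 bases before the start in Sprr1b, 116 in Ivl and 48 in Lor, and at 146 and 116 in Sprr1a. The window of Lce3f, also a tested gene over 2-fold higher in cKO within the first pair, held neither TATAAA nor TGANTCA. Crct1, another of these genes, had no window. The letters CACCC, which Klf factors bind, were found in 16 windows (48.5%), against 52% of all windows. The CArG box on either strand was found in 1 window (3.03%, against 1.47%), that of Flg, 221 bases before the start. Sprr2 genes are close copies, so their windows are not independent, and a match of letters is not a binding site.

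In the sorted cells, 24 of the 37 genes had a mean log2 signal above the median of all probe sets, a signal of 65.9, and were tested; the other 13 are given by their values. The last gene above this limit was Lce3f, at a mean of 102, and the first below it was Lce3c, at 58.2. None of the 24 passed in limma without a block (0, against 0% of the 11053 genes tested), and 0 had an unadjusted p under 0.05, against 0.597% of the tested genes; the smallest was 0.162, for Lce1b. With the title number as a block, limma called 1 of the 24 higher, Sprr1b (against 0.253% of tested genes called higher), and 0 lower (against 0.624%). With 2 arrays against 2, an exact two-sided permutation test cannot go below p = 0.333. In bulk samples fewer cells of a type and less RNA per cell cannot be told apart.

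**Figure D1:**
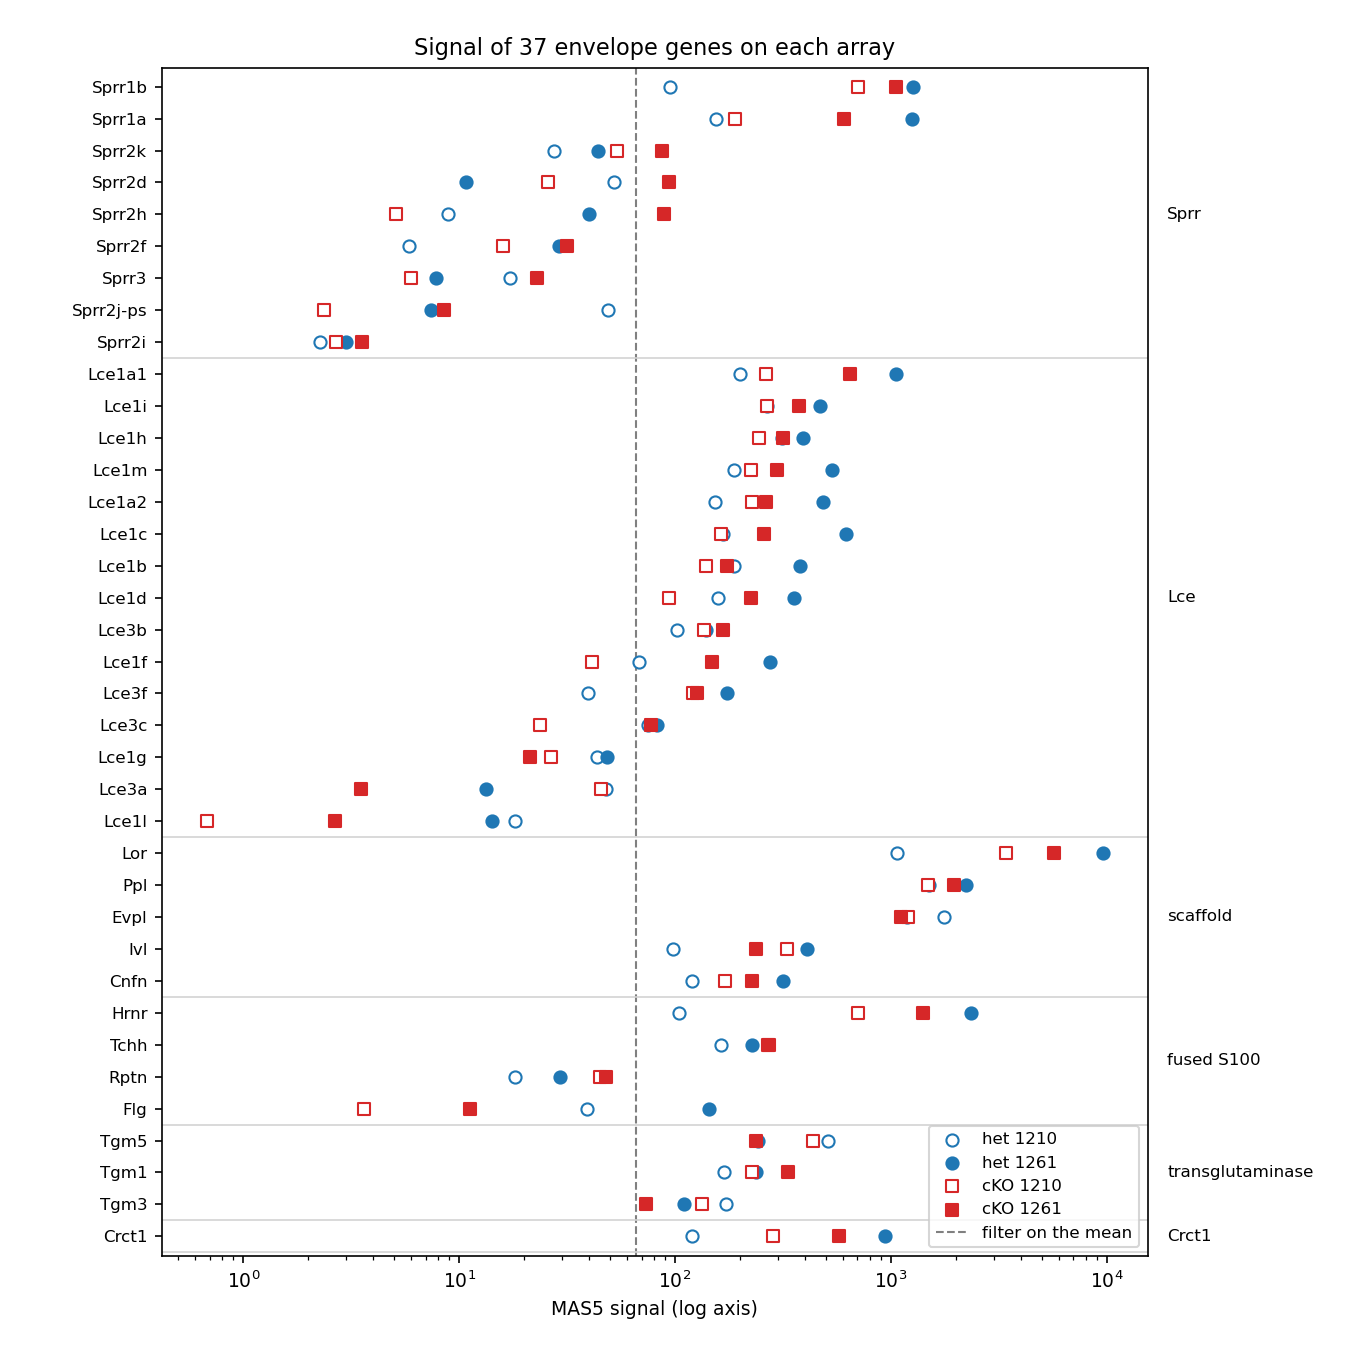
Signals of the 37 genes on the 4 arrays, on a log axis, grouped by role; each gene is shown by its brightest probe set, circles are het, squares are cKO, open symbols are the first pair and filled symbols the second. For Sprr1b, Lor, Hrnr and Crct1 the open circle (het_1210) is lowest, the filled circle (het_1261) is highest and both squares lie between them.

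The small proline-rich proteins are short cross-bridging proteins of the envelope. Sprr1b had a signal of 94.95 in het_1210 and 1265 in het_1261, against 707 in Ko_1210 and 1056 in KO_1261. Both cKO arrays thus lay between the het arrays. Its cKO level was 7.44-fold that of het within the first pair and 0.835 of it within the second pair, a log2 difference of 1.31 ± 1.22 (SE, limma without a block), with 2.88 and -0.26 within the pairs. The call of Sprr1b with the block (adjusted p = 0.0456) ended with a robust prior (0.910), without the variance trend (0.780), with median centring (0.129), with a pseudocount of 32 (0.380) and without the filter (0.629), and it became 0.00181 with quantile normalization. Without het_1210 the difference was -0.55.

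Sprr1a, its closest neighbour by name, had a signal of 154 in het_1210 and 1259 in het_1261, against 189 in Ko_1210 and 610 in KO_1261. The het arrays again enclosed both cKO arrays, but here Ko_1210 lay close to het_1210. The log2 difference was -0.38 ± 1.13 (0.29 within the first pair and -1.04 within the second pair).

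The Sprr2a copies were read by 3 probe sets that carry more than 1 symbol, and in each of them both cKO arrays lay above both het arrays. The first of them had a signal of 1282 in het_1210 and 991 in het_1261, against 1392 in Ko_1210 and 3196 in KO_1261. The second had 2233, 1352, 2298 and 3290 in the same order, and the third had 127, 127, 178 and 170. The 2 brighter ones were high on the KO_1261 array, whereas Ko_1210 exceeded het_1210 by 1.09-fold and 1.03-fold. Their log2 differences were 0.90 ± 0.45, 0.66 ± 0.35 and 0.45 ± 0.36 (SE, limma without a block), and 0 of the 3 passed. With the block, the first passed (adjusted p = 0.0249), which with Sprr1b made all the calls of the group (2 of the 30 tested, against 0.364% of all tested probe sets called higher and 0.497% lower), and the second passed with the block and quantile normalization (0.0233). The call of the first ended with the robust prior (0.831), without the variance trend (0.750), with median centring (0.057), with a pseudocount of 32 (0.231) and without the filter (0.506). Over all probe sets tested, 7.91% had both cKO arrays above both het arrays.

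The other 7 Sprr genes, Sprr2d, Sprr2f, Sprr2h, Sprr2i, Sprr2j-ps, Sprr2k and Sprr3, lay below the filter, with signals from 2.26 to 93.6. At such signals a difference is imprecise. Sprr2k was the gene among them whose groups did not overlap in the same direction as the Sprr2a probe sets, with 27.6 and 44.2 in het and 53.7 and 87.1 in cKO (first pair, then second). Sprr2d, Sprr2h, Sprr2j-ps and Sprr3 were lower in cKO within the first pair and higher within the second pair, the reverse of Sprr1a and Sprr1b. Neither Sprr2f nor Sprr2i was lower in cKO in either pair. The copies are close in sequence, so a probe set may read transcripts of another member.

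The scaffold proteins fell into 2 patterns. Loricrin (Lor), the glycine-rich main component of the mature envelope, had a signal of 1063 in het_1210 and 9592 in het_1261, against 3418 in Ko_1210 and 5705 in KO_1261. As for Sprr1b, the het arrays were the lowest and the highest. The log2 difference was 0.47 ± 1.05, made of 1.68 within the first pair and -0.75 within the second pair. Its other probe sets gave 1.49 and -0.77, and 0.62 and -0.52, so all 3 had the same signs.

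Involucrin (Ivl), a glutamine-rich substrate of transglutaminases, had a signal of 97.5 in het_1210 and 409 in het_1261, against 330.3 in Ko_1210 and 237 in KO_1261. Its log2 difference was 0.48 ± 0.74 (1.75 and -0.78), and a dimmer probe set below the filter had the same signs (1.73 and -2.11). Cornifelin (Cnfn), a small envelope protein, followed with 121, 316, 171 and 228 and a difference of 0.02 ± 0.56 (0.50 and -0.47).

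Envoplakin (Evpl) and periplakin (Ppl), plakins that link the envelope to desmosomes and keratin filaments, varied far less. Evpl had a signal of 1760.4 in het_1210 and 1184 in het_1261, against 1200.2 in Ko_1210 and 1116 in KO_1261. Its difference was -0.32 ± 0.28 (-0.55 and -0.09), with Ko_1210 above het_1261, so the groups overlapped. Ppl had 1511, 2235, 1488 and 1959 in the same order and a difference of -0.11 ± 0.30 (-0.02 and -0.19), with a sign that turned under median centring (0.02).

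Of the fused S100 proteins, hornerin (Hrnr) had the widest spread among the 24 tested genes. Its signal was 104 in het_1210 and 2342 in het_1261, against 705 in Ko_1210 and 1411 in KO_1261. The het arrays differed 22.5-fold and the cKO arrays 2.002-fold, and the difference between the groups was 1.01 ± 1.47 (2.75 and -0.73). Filaggrin (Flg), which bundles keratin and is broken down to moisturizing amino acids, had another order of arrays. Its signal was 39.3 in het_1210 and 144 in het_1261, against 3.62 in Ko_1210 and 11.2 in KO_1261. Both cKO arrays were below both het arrays, with a log2 difference of -3.12 within the first pair and -3.57 within the second pair. As its mean lay below the filter, Flg was not tested in the main fit. In limma on all probe sets it did not pass (adjusted p = 0.999976 without and 0.533 with the block; unadjusted 0.0194 and 0.00351), and 3 of its 4 signals were under 65.9. Of all 18193 genes, tested or not, 15.4% had both cKO arrays below both het arrays, and 4 of the 37 members did: Flg, Lce1b, Lce1g and Lce1l.

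Trichohyalin (Tchh), best known from the inner root sheath of the hair follicle, had 164 in het_1210 and 228 in het_1261, against 273 in Ko_1210 and 269.5 in KO_1261. Both cKO arrays were higher, by 0.49 ± 0.35 (0.73 and 0.24), and Tchh did not pass with or without the block. It was the 1 tested gene whose cKO arrays both lay above the het arrays, against 8.17% of tested genes; counting those below the filter, Rptn and Sprr2k did so too (3 of 37, against 9.42% of all genes). Repetin (Rptn) lay below the filter, with signals from 18.2 to 47.7 in its brightest probe set. Repetin was higher in cKO there within both pairs, while 1 of its other 2 probe sets had a negative difference within the second pair (-0.32).

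The late cornified envelope genes, small cysteine-rich or glycine-rich proteins added late to the envelope, were nearly all lower in cKO within the second pair. Of the 15 Lce genes, 14 were lower in cKO within the second pair and 9 within the first pair. Of all 18193 genes, 10033 were lower within the second pair and 10009 within the first. The filter was passed by 11 of the 15 Lce genes. Lce1b had a signal of 188 in het_1210 and 378 in het_1261, against 139.8 in Ko_1210 and 175 in KO_1261. It was the 1 tested gene of the group with both cKO arrays below both het arrays, against 10.9% of the tested genes, and its difference was -0.76 ± 0.47 (-0.42 and -1.11; adjusted p = 0.999955 in limma without and 0.310 with the block). Lce1c had 167, 622, 163 and 258 in the same order, so that het_1261 stood apart from 3 similar arrays, with -0.65 ± 0.70 (-0.04 and -1.27). Lce1d, with 158, 356, 93.6 and 225, and Lce1f, with 68.3, 275, 41.2 and 149, were lower in cKO within both pairs, by -0.75 and -0.66 and by -0.71 and -0.88. A second, dimmer Lce1f probe set below the filter had the opposite sign (0.42).

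Lce1a1 had 199.5 in het_1210 and 1060 in het_1261, against 265 in Ko_1210 and 648 in KO_1261, with a difference of -0.15 ± 0.90 (0.41 and -0.71). It shared with Lor the order of arrays, in which het_1210 was lowest and het_1261 highest. Lce1a2 (153, 488, 228 and 263), Lce1m (188, 537, 225 and 298) and Lce1i (266, 469, 268 and 376) had that order too. Lce3f had 39.7, 174, 121 and 126 and differed by 0.56 ± 0.78 (1.58 and -0.46). Lce1h, with 313, 391, 244 and 318, was lower in cKO within both pairs (-0.36 and -0.30), and Lce3b, with 102, 139, 136 and 167, was higher within both (0.41 and 0.26). Several of these probe sets are of a type that can read more than 1 transcript, so single Lce genes are uncertain.

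The 4 Lce genes below the filter, Lce1g, Lce1l, Lce3a and Lce3c, had signals from 0.677 to 82.3. Lce1g had 43.6 and 48.6 in het and 26.5 and 21.4 in cKO. Lce1l had 18.2 and 14.2 in het and 0.677 and 2.67 in cKO. Both were lower on both cKO arrays, at signals where the size of a difference is imprecise, and neither passed in limma on all probe sets (with the block, adjusted p = 0.874 and 0.629).

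Transglutaminases, the enzymes that form the cross-links of the envelope, did not share a direction. Tgm1, the membrane-bound form of the suprabasal layers, had a signal of 169 in het_1210 and 238 in het_1261, against 226 in Ko_1210 and 335 in KO_1261, higher in cKO by 0.46 ± 0.39 (0.42 and 0.49) although the groups overlapped. Tgm3, a form of the late layers and hair follicle, had 172, 110.3, 134 and 73.6 and was lower by 0.47 ± 0.51 on the log2 scale (-0.36 and -0.58). Its second probe set, below the filter, gave -2.11 and -1.85, from 240.1 in het_1210 to 17.8 in KO_1261. Tgm5 had 511, 244, 435 and 237, a difference of -0.13 ± 0.52. For Tgm3 and Tgm5 the first-pair array was the brighter one in both groups, the reverse of Lor. Crct1, a small cysteine-rich protein encoded beside the Lce genes, had 120.0, 942, 285 and 577 and differed by 0.27 ± 1.03 (1.24 and -0.71).

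Within the first pair, 6 of the 24 tested genes were over 2-fold higher in cKO, against 1.22% of all tested genes: Sprr1b, Hrnr, Ivl, Lor, Lce3f and Crct1. All 6 were lower in cKO within the second pair, which 0.57% of tested genes also combine (4.51% of all genes). None was over 2-fold lower (0 of 24, against 2.9%). Within the second pair none was over 2-fold higher (0 of 24, against 0.452%) and 3 were over 2-fold lower, Lce1c, Lce1b and Sprr1a, against 1.39%. Counting all 37 genes, with those below the filter, 8 were higher and 5 lower within the first pair (against 8.19% and 13.3% of all 18193 genes), and 3 were higher and 7 lower within the second pair (against 7.02% and 10.8%). These are counts from 1 array per group, with no replicate check.

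The direction differed between the pairs for many of the genes. Of the 24, 12 were higher in cKO within the first pair and lower within the second pair, against 22.3% of tested genes, and 0 had the reverse order, against 21.7%. Another 9 were lower within both, against 31.6%, and 3 were higher within both, Tgm1, Tchh and Lce3b, against 24.4%. Over all 37 genes the counts were 12, 4, 14 and 7, against 23%, 22.8%, 32.2% and 22% of all genes. The median difference of the 24 genes was 0.35 within the first pair, -0.62 within the second pair and -0.14 between the group means. That of all tested genes was -0.03, -0.02 and -0.02. Leaving out het_1261 gave a median of 0.62 and leaving out het_1210 gave -0.62. The difference between the pairs has no test, since a fit with its own term would leave no residual degree of freedom.

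**Figure D2:**
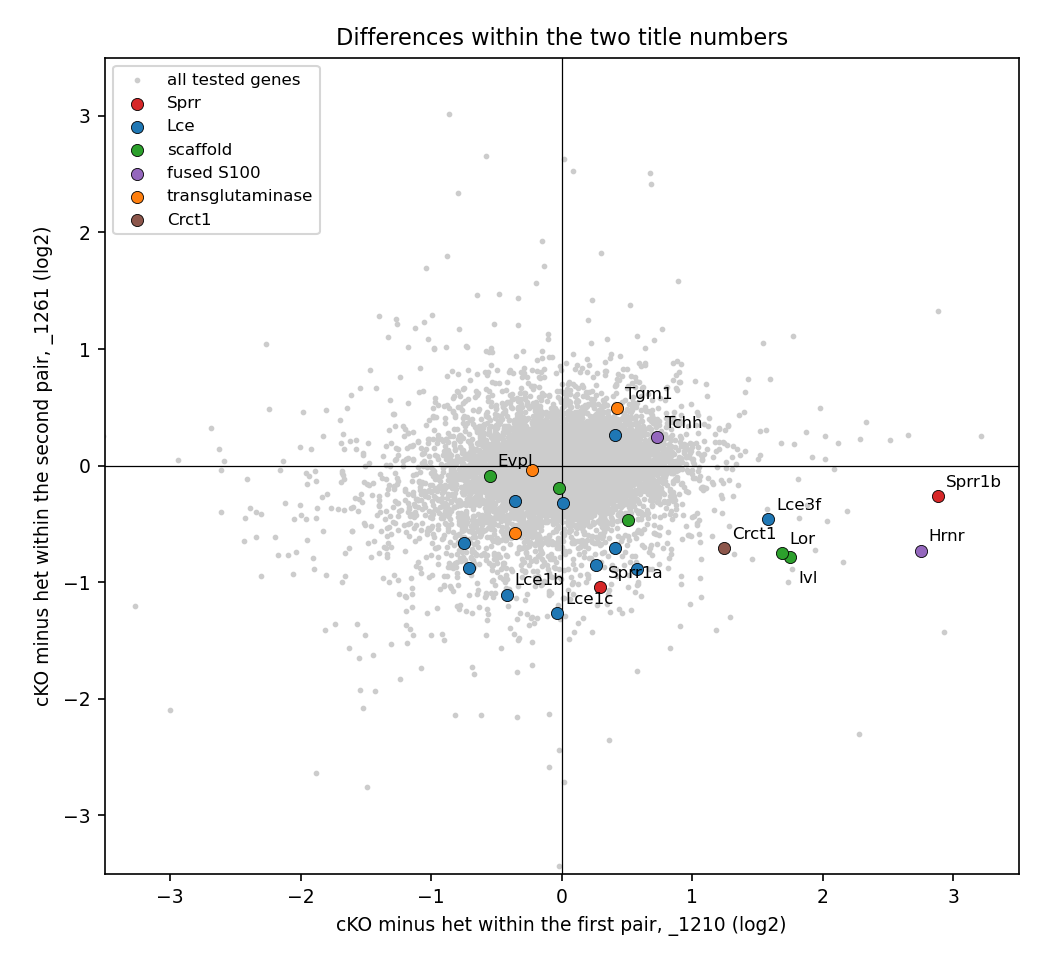
Difference cKO minus het (log2) within the first pair (horizontal) and within the second pair (vertical) for the 24 tested envelope genes, coloured by role, and for all 11053 tested genes in grey; 12 genes lie outside the axes. The 12 envelope genes in the lower right were higher in cKO within the first pair and lower within the second pair, and 0 lie in the upper left.

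The same values can be read between the arrays of a group. In het, 15 of the 24 genes were over 2-fold higher on the second-pair array, against 6.61% of tested genes, and in cKO 6 were, against 3.85%. Over all 37 genes these counts were 18 and 13, against 11.8% and 10.7%. Over 2-fold lower on the second-pair array were 1 in het, Tgm5, and 0 in cKO, against 4.61% and 2.3% (5 and 1 of all 37, against 13.1% and 11.2%). The largest ratios in het were 22.5 for Hrnr, 13.3 for Sprr1b, 9.02 for Lor, 8.16 for Sprr1a and 7.85 for Crct1, and the same genes had ratios of 2.002, 1.49, 1.67, 3.22 and 2.02 in cKO. The ratio of the second to the first pair was larger in het for 19 of the 24 genes, against 5588 of all 11053 tested genes. Its medians on the log2 scale were 1.45 in het and 0.40 in cKO, against -0.13 and -0.12 for all tested genes. In 12 genes het_1210 was the lowest and het_1261 the highest of the 4 arrays, against 10.9% of tested genes (12 of all 37, against 9.36%), so for these the het arrays enclosed both cKO arrays. Ivl and Tchh were the genes whose arrays were ordered differently in the groups: for Ivl, the second-pair array was the brighter in het (4.20-fold) and the dimmer in cKO (0.718).

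**Figure D3:**
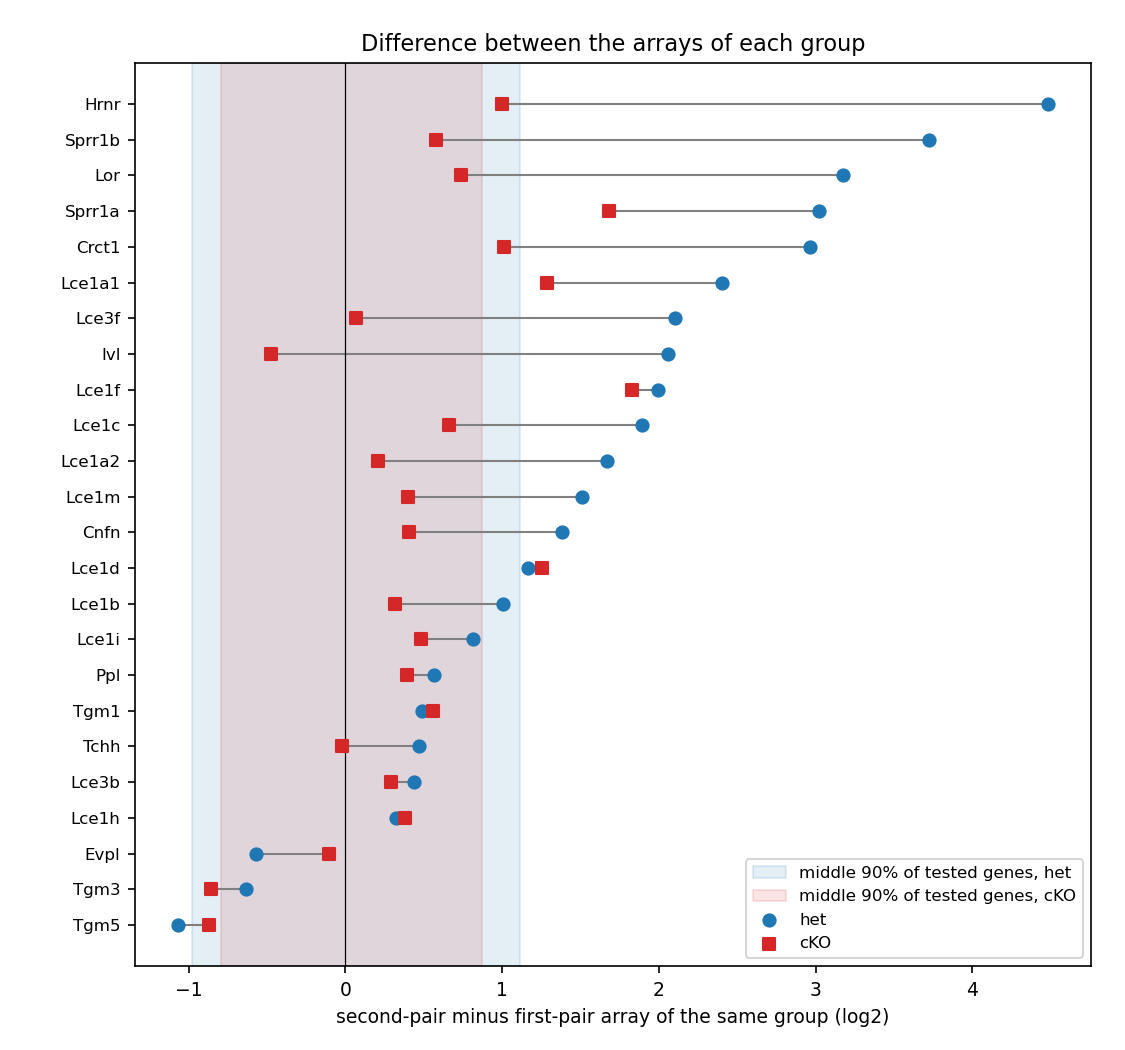
Second-pair array minus first-pair array of the same group (log2) for the 24 tested envelope genes, in het (circles) and in cKO (squares), with the range of the middle 90% of tested genes shaded for each group. Hrnr, Sprr1b, Lor, Sprr1a and Crct1 lie furthest right in het, and their cKO squares lie to the left of them.

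Genes of the spinous layer, which lies between the basal and the granular layer, mostly had lower cKO signals in both pairs. Of the 13 tested, 11 were lower in cKO within the first pair and 13 within the second pair. Of all 11053 tested genes, 5891 and 5951 were. The median difference of the 13 was -0.64 (-0.64 and -0.51). In limma with the block 7 passed, all lower (against 0.624% of tested genes), among them Ly6d (-1.17 ± 0.16), Krt1 (-0.80 ± 0.14), Lypd3 (-1.06 ± 0.20), Krt10 (-0.66 ± 0.13) and Calm4 (-0.67 ± 0.13; SE of the fit with the block), and 0 passed without it. Within the first and second pair the differences were -1.63 and -0.71 for Ly6d, -1.16 and -0.43 for Krt1 and -1.34 and -0.79 for Lypd3. They were -0.90 and -0.42 for Krt10, and -0.64 and -0.70 for Calm4. With 1 residual degree of freedom, the SE of the fit with the block rests largely on the variance trend, not on the gene's own spread. These SEs cannot be set beside those of the envelope genes, which are without a block. Without a block the SE was 0.51 for Ly6d, 0.38 for Krt1, 0.27 for Lypd3, 0.38 for Krt10 and 0.24 for Calm4. With the block but without the variance trend, 0 genes of the array passed. Krt1 and Krt10, the keratins of suprabasal cells, were highest on het_1210, the array where Lor, Hrnr and Sprr1b were lowest. Krt10 had a signal of 58187 in het_1210 and 33198 in het_1261, against 31135 in Ko_1210 and 24854 in KO_1261. The basal keratins Krt5 and Krt14 were highest on het_1210 as well. Other spinous or granular genes had the order of Lor, all named after their values were seen: Krt77, with 193, 1742, 792 and 1255, the calmodulin-like gene Calml3, with 229, 912, 480 and 468, and the protease Klk7, with 101, 385, 170.0 and 214.

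In the other lists, calls with the block are set against 0.253% of all tested genes called higher and 0.624% called lower. The SEs given for these calls are of the fit with the block. Of 17 tested proteins found in or at the envelope, such as cystatins and desmosomal proteins, 15 had lower cKO means (median -0.22, with -0.36 and -0.30 in the pairs), and 0 passed with the block. Of 8 tested S100 genes that neighbour the envelope genes, 6 were lower (median -0.14, with -0.38 and 0.21) and 0 passed. Genes of filaggrin processing and desquamation had 9 of 13 lower, a median of -0.16 and 0 calls. Of 13 tested genes for barrier lipids 10 were lower, with a median of -0.16, and 2 fell with the block. Elovl4, which lengthens the acyl chains of skin ceramides, fell by 1.12 ± 0.21 (-1.15 and -1.10 within the pairs). The cholesterol sulfotransferase Sult2b1 fell by 1.29 ± 0.30 (-1.95 and -0.64 within the pairs). Among 30 tested transcription factors of epidermal differentiation 14 were lower and 16 higher, and the median was 0.04. With the block 1 fell, Pou3f1, by 0.64 ± 0.16 (-0.74 and -0.53 within the pairs). For comparison, the median of all tested genes was -0.02, and 5941 of the 11053 had lower cKO means. Named after their values were seen, the AP-1 gene Fosl1 had 198, 2869, 208 and 3835 in het_1210, het_1261, Ko_1210 and KO_1261, and Ovol1 had 695, 2637, 555 and 2968. Both were high on the second-pair arrays of both groups. In het, 18 of the 30 tested transcription factors were higher and 12 lower on the second-pair array, with a median log2 difference of 0.22. In cKO, 16 were higher and 14 lower, with a median of 0.11. A larger ratio of the second to the first pair in het than in cKO was found for 19 of the 24 tested envelope genes. Of all 11053 tested genes, 5588 had it. Of the 13 envelope genes below the filter, 5 did, against 9087 of all 18193 genes, tested or not. The median log2 ratios of the 13 were 0.15 in het and 1.13 in cKO.

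**Figure D4:**
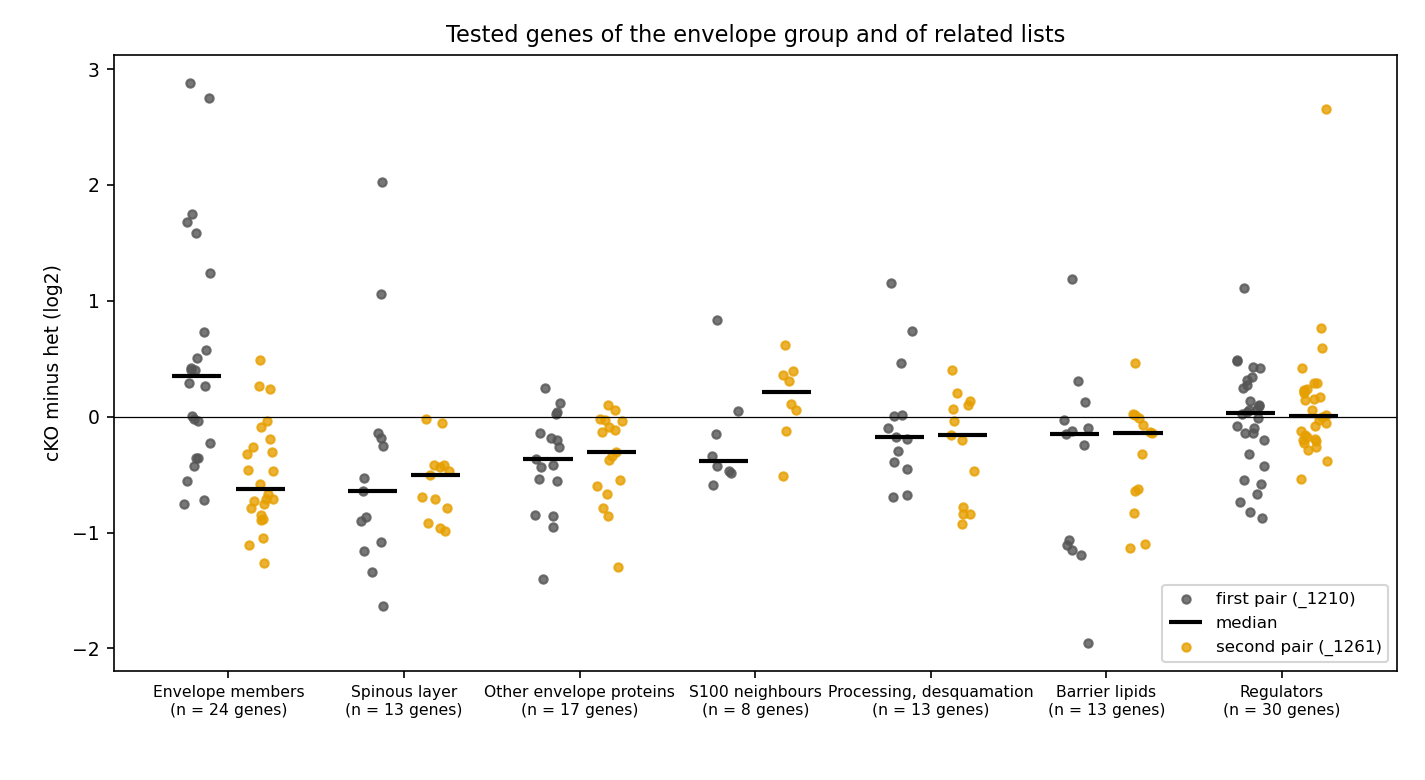
Difference cKO minus het (log2) within the first pair (grey) and within the second pair (orange) for each tested gene of the envelope group and of 6 related lists; bars are medians. The envelope genes have medians of 0.35 and -0.62, the spinous genes -0.64 and -0.51, and the regulators 0.03 and 0.005.

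Markers of the cell types that a sort could hold were set beside these values. All 12 basal keratinocyte markers were above the filter, with Krt14 at 59598, 35520, 53068 and 36033 in het_1210, het_1261, Ko_1210 and KO_1261, a difference of -0.07 ± 0.40 between the groups, and Krt5 at -0.12 ± 0.38 (SE, limma without a block). The 6 spinous keratinocyte markers were above the filter as well, and which of the sorted cells made these transcripts was not tested. Their summed signal was 145511 in het_1210 and 84999 in het_1261, against 88879 in Ko_1210 and 68850 in KO_1261. Of 12 periderm markers, genes of the transient outer layer of the embryo, 7 were above the filter. Cldn6, Krt13, Krt19, Muc1 and Psca were below it. The sums ran from 44037 in het_1210 to 15925 in KO_1261, with 18270 in het_1261. Most of the sum on het_1210 came from Krt17 and Lgals3, with signals of 22346 and 20547. In het, 6 of the 7 tested markers were lower on the second-pair array, against 6346 of all 11053 tested genes. Of the 12 basal markers, 6 were. Krt18 was the periderm marker that was higher. Its signals were 180 and 413 in het and 139 and 405 in cKO (first pair, then second). In limma with the block, Lgals3 fell by 0.78 ± 0.14 (-1.07 and -0.49 within the pairs) and Krt6a rose by 1.32 ± 0.33. Krt6a rose through 1 array: its signal was 193 in het_1210 and 142 in het_1261, against 196 in Ko_1210 and 886 in KO_1261. The sums of all the cell-type lists, not only the spinous and periderm ones, were highest on het_1210, where Lor, Hrnr and Sprr1b were lowest. The basal keratinocyte sum was 216705 in het_1210 and 167207 in het_1261, against 205272 in Ko_1210 and 161467 in KO_1261. The periderm sum was highest there mainly through Krt17 and Lgals3. Hair follicle markers (7 of 12 above the filter) summed to 3465 to 5274 and fibroblast markers (11 of 11) to 58034 to 70464, again highest on het_1210. With the block, Lhx2 of the hair follicle list fell by 1.21 ± 0.25 (-1.66 and -0.75 within the pairs). The fibroblast genes Col3a1, Vim and Twist2 fell with the block by 0.62 ± 0.15, 0.71 ± 0.17 and 1.21 ± 0.31. Their differences were -0.98, -1.20 and -1.96 within the first pair and -0.26, -0.22 and -0.46 within the second. Of the 11 tested fibroblast genes, 7 had lower and 4 had higher cKO means. Pdgfra and Thy1 were above het on both cKO arrays, with differences of 0.75 and 0.43. Melanocyte markers (5 of 8 above the filter) summed to 1461 on het_1210 and to 749 to 797 on the others. The immune sum ran from 389 to 854 and the endothelial sum from 615 to 987, with 3 of 9 and 5 of 7 markers above the filter. The immune gene Laptm5 fell by 1.47 ± 0.36 with the block (-2.17 and -0.77 within the pairs). The part of these cell types in the envelope values was not tested.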

How the data were processed

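The authors deposited linear array intensities, 1 signal for each probe set on each array, computed with MAS5 according to the submitters' processing notes. Per the labels, Trizol RNA was biotin-labelled from the 3' end. The mean with 2% trimmed at each end was 500.0 on all 4 arrays, so only changes relative to it can be seen.

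Of 45101 probe sets, 64 controls were left out. Symbols came from the platform annotation, updated by Entrez identifier: 34945 probe sets had 1 symbol (34741 matched), 932 several and 9160 none. A gene was read through its brightest probe set. Values were log2(signal + 1), and 22518 probe sets above the median mean log2 signal were tested. The comparison of groups used limma 3.58.1 under R 4.3.3 (eBayes with a variance trend, two-sided, Benjamini-Hochberg over all tested probe sets, threshold 0.05), without a block (2 residual degrees of freedom) and with the title number as a block (1). The deviations of same-numbered arrays from the group means correlated at 0.755; with 2 pairs and no label this does not show that the numbers pair animals. The pipeline was tested on simulated data. Arrays have no read depth, and their number limits the precision.

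Genes named are all members, Srf, Krt5, Krt14, Krt1, Krt10 and up to 5 genes a list that passed; Xist, Eif2s3y, Krt77, Calml3, Klk7, Fosl1 and Ovol1 fall outside that rule and were chosen after their values were seen, and markers below the filter are named for completeness. The members and lists were chosen with earlier results of these data known. Alternatives covered the block, prior, scaling, pseudocount, filter and leaving out each array. Figures used matplotlib 3.10.9 in Python 3.11.15.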

Additional observations from a re-analysis of the deposited data

Results flagged for a closer look

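For 4 of the 24 tested envelope genes the cKO and het arrays differed in opposite directions within the pairs of arrays, by more than 1.5-fold in each. The difference within the first pair exceeded that within the second pair by 3.48 log2 units for Hrnr, by 2.53 for Ivl, by 2.43 for Lor and by 1.95 for Crct1. In all 4, cKO was higher within the first pair and lower within the second pair. Whether the pairs differ was not tested, as each holds 1 array per group.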

How the results depend on the processing

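Without a block, 0 probe sets and 0 genes passed in limma under every scaling, pseudocount and filter tried with all 4 arrays, while with 1 array left out 0 to 5 probe sets and 0 to 2 genes passed (5 and 2 without Ko_1210, 3 and 1 without KO_1261). With the title number as a replicate block, 194 probe sets and 97 genes passed; 84 and 50 with a robust prior, 353 and 151 with quantile normalization, 109 and 52 with median centring, 42 and 25 with a pseudocount of 32, 17 and 8 without the filter, and 0 and 0 without the variance trend. Of the envelope group, 2 probe sets and 1 gene passed with the block, 3 and 1 with the block and quantile normalization, and 0 under the other settings. Srf, at -3.93 in each fit, passed with the block (adjusted p = 1.18e-12), where its difference was -3.91 with quantile normalization, -3.81 with median centring and -3.39 with a pseudocount of 32, and it ranged from -4.30 to -3.56 with 1 array left out.

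The median of the 24 genes ranged from -0.62 to 0.62 with 1 array left out: -0.62 without het_1210, 0.62 without het_1261, 0.17 without Ko_1210 and -0.25 without KO_1261. Median centring shifted the all-gene median (-0.02) to 0.10 and gave list medians of 0.16 for the regulators, -0.10 for the other envelope proteins, -0.034 for processing, -0.036 for lipids and -0.52 for the spinous genes, without and with the replicate block. With 1 array left out, list medians ranged from -0.071 to 0.088, from -0.41 to -0.17, from -0.38 to 0.014, from -0.32 to -0.19 and from -0.75 to -0.51 in the same order.

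At 1.5-fold in place of 2-fold, 2 genes were lower in cKO within the first pair and 12 within the second pair; without the filter 5 and 7 were lower and 3 higher within the second pair, and with median centring 1 was lower within the second pair. Between the arrays of het, 2 genes were over 2-fold lower on the second-pair array with quantile normalization, 0 with a pseudocount of 32 and 5 without the filter; in cKO 3 were higher with quantile normalization and 13 without the filter, and 2, 2 and 1 were lower with median centring, with quantile normalization and without the filter, settings chosen after seeing the data. Both cKO arrays lay above both het arrays in 3 genes and below in 2 with median centring, and in 3 and 2 with quantile normalization. Shares of all genes were computed only with the main scaling, pseudocount and fold limit. Counts at 1.5-fold or with another scaling or pseudocount therefore have no share to be read against.

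Signs of single genes turned with a pseudocount of 32 for Cnfn (-0.0029, also with the replicate block) and with median centring for Ppl (0.016, also with the block). Leaving out 1 array gave differences from -0.67 to 0.71 for Cnfn, from -1.21 to 1.75 for Crct1, from -1.23 to 3.25 for Hrnr, from -0.55 to 1.51 for Ivl, from -1.35 to 1.05 for Lce1a1, from -0.99 to 0.68 for Lce1a2, from -1.60 to 0.29 for Lce1c, from -1.79 to 0.20 for Lce1f, from -0.56 to 0.25 for Lce1i, from -1.05 to 0.46 for Lce1m, from -0.49 to 1.61 for Lce3f, from -1.12 to 2.05 for Lor, from -0.39 to 0.18 for Ppl, from -1.89 to 1.13 for Sprr1a, from -0.55 to 3.17 for Sprr1b and from -0.67 to 0.40 for Tgm5. The cause of these shifts was not tested.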
